A study of Homo sapiens with 4 samples.

Results

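The KRTAP genes encode the keratin-associated proteins of hair. The family was taken as every protein-coding gene of GENCODE release 44, placed on GRCh37, whose symbol begins with KRTAP, which gave 94 of 20163 protein-coding genes on the 24 main chromosomes. The rule used the symbol alone and no measured value. H4K20me3 had been mapped by ChIP-seq in IMR90 cells, a line of diploid human lung fibroblasts, either proliferating at population doubling 32 (PRO) or in replicative senescence at population doubling 86 (RS). The 4 samples, all of the same cell line, were 2 per group, immunoprecipitated with different antibodies, and the labels name no added agent or engineered allele. The deposited data used here were 3 lists of regions: 2836 PRO peaks, 35535 RS peaks, and 18711 regions that DiffBind had called different between the groups. PRO and RS peaks are stretches found with both antibodies. The DiffBind list gives no direction, so a DiffBind region is not read here as a gain or a loss. The paper reports that the vast majority of its differential peaks were higher in RS, but the list does not mark which. Since each group is represented by 1 merged list, replicate spread could not be computed, and no PRO and RS values set side by side below carry an error or a test. The lists give no read counts, so the read depth at a site without a peak is unknown, although the study reports reads per library. The lists hold no expression values either, so the labelled cell type was not checked against its markers.

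Keratin-associated proteins fill the space between the keratin filaments of the hair shaft and are cross-linked to hair keratins through disulfide bonds between cysteines. They are usually grouped by composition into high sulfur, ultra-high sulfur and high glycine-tyrosine proteins. Their genes are short, lie in tandem clusters of near copies, and are known for being transcribed in the differentiating cells of the hair follicle. H4K20me3 is placed by the SUV420H enzymes, commonly where H3K9me3 is already present, and is a mark of silent chromatin.

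The 94 genes fell into 5 clusters, with neighbours in a cluster under 1 Mb apart, and 0 lay elsewhere. The cluster on chromosome 17 (chr17:39149682-39471962) held 34 members, among them the KRTAP1, KRTAP2, KRTAP3, KRTAP4 and KRTAP9 subfamilies. On chromosome 21 a proximal cluster (chr21:31653627-32410795) held 33 members, including KRTAP19 and all 18 genes classed here by codons as high glycine-tyrosine. A distal cluster on the same chromosome (chr21:45958864-46117959) held the 16 KRTAP10 and KRTAP12 genes. The KRTAP5 genes were split on chromosome 11 between 6 on the short arm (chr11:1605572-1718985) and 5 on the long arm (chr11:71238313-71314399). Gene bodies ran from 208 to 21499 bp with a median of 859 bp, and 92 of the 94 were under 2 kb. The exceptions were KRTAP3-1 at 10804 bp and KRTAP5-11 at 21499 bp.

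The KRTAP2 genes are shown first, because all 4 had an RS peak over the annotated start and a DiffBind region lay over 1 of them. Each line gives GRCh37 sequence just upstream of the annotated start, written 5′ to 3′ on the strand of the gene, which is the minus strand for all 4, with a TATAAA motif in capitals. The windows are chr17:39203586-39203661 for KRTAP2-1, chr17:39211530-39211605 for KRTAP2-2, chr17:39216369-39216444 for KRTAP2-3 and chr17:39222164-39222239 for KRTAP2-4.
KRTAP2-1: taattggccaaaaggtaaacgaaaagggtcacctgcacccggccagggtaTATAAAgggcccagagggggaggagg
KRTAP2-2: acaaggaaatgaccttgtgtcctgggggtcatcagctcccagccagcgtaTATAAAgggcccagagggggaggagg
KRTAP2-3: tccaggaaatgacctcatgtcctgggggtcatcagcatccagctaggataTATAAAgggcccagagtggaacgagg
KRTAP2-4: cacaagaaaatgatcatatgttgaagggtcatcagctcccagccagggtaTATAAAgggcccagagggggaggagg
The motif began between 28 and 73 bases before the annotated start. Aligned on it without gaps, pairs of these windows shared 46 to 64 of 76 bases, and 23 to 26 of the 26 bases from the motif on. RS peaks covered 100% of the KRTAP2-1 window, 94.7% of that of KRTAP2-2, 43.4% of that of KRTAP2-3 and 50% of that of KRTAP2-4. DiffBind regions covered 100% of the first and none of the other windows.

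The next lines show the first 120 coding bases of 1 covered gene from each protein class, to show the codon content by which the classes were told apart. Capitals mark cysteine codons in KRTAP4-8 (ultra-high sulfur, chr17:39254217-39254336, minus strand) and KRTAP10-4 (high sulfur, chr21:45993636-45993755, plus strand), and glycine codons in KRTAP19-2 (high glycine-tyrosine, chr21:31859548-31859667, minus strand).
KRTAP4-8: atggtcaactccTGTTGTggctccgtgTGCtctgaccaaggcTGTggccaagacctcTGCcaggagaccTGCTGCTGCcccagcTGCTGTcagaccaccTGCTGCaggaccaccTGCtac
KRTAP10-4: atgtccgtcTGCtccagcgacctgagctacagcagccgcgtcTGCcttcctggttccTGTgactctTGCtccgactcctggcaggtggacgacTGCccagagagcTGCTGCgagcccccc
KRTAP19-2: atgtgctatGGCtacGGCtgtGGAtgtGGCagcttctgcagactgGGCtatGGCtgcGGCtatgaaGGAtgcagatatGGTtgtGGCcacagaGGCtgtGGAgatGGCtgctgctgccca
KRTAP4-8 held 13 cysteine codons in this stretch and KRTAP10-4 held 7, while KRTAP19-2 held 13 glycine codons. The cysteine and tyrosine codons of KRTAP19-2 are not in capitals. Over its whole coding sequence 23.1% of codons were cysteine, the highest share in its class, where the median was 10.7%. The stretch of KRTAP4-8 lay wholly within an RS peak and a DiffBind region. That of KRTAP10-4 lay wholly within a DiffBind region with no RS peak, and that of KRTAP19-2 wholly within an RS peak with no DiffBind region.

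In proliferating cells no KRTAP gene carried a peak found with both antibodies. The paper reports that peaks of the antibodies overlapped much less in proliferating than in RS cells. PRO peaks overlapped 0 of the 94 gene bodies, beside 3.97% of all coding genes, and 0 of the 92 bodies under 2 kb, beside 2.43% of the 1152 coding genes of that size, which include these 92. With 5 kb added on either side the count was again 0, beside 3.73% of coding genes under 2 kb, and 0 annotated starts were covered, beside 0.724% of all coding genes. All these shares are small, so 0 among 94 genes is not read as particular to this family. One PRO peak lay anywhere within the 5 cluster spans. It was 601 bp long (chr21:32269001-32269601) and sat in the proximal cluster of chromosome 21, 15102 bp from KRTAP11-1.

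In senescent cells RS peaks overlapped the bodies of 14 KRTAP genes (14.9%), beside 21.0% of all coding genes. Most coding genes are far longer than a KRTAP gene, and a longer body has more room for a peak. Among genes under 2 kb, 14 of 92 members (15.2%) held an RS peak, beside 8.51% of all coding genes of that size. With 5 kb flanks the counts were 25 of 92 (27.2%) and 15.3%. Flanks of neighbouring members can overlap, so the same peak can count for more than 1 member. The annotated start itself was covered in 9 of 94 members (9.57%), beside 1.73% of all coding genes. Starts were not counted for coding genes under 2 kb alone, so this comparison is not matched for size. RS peaks covered 7674 of 108111 body bases (7.10%), compared with 0.978% of the bodies of all coding genes and 1.23% of the 24 chromosomes. Over the 92 members under 2 kb, which held all of these covered bases, the share was 10.1%, compared with 6.60% over all coding genes of that size. With 5 kb flanks the order was reversed, with 2.25% of bases covered for these members and 2.58% for coding genes of that size.

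DiffBind regions overlapped 15 KRTAP bodies (16.0%), beside 18.3% of all coding genes. Among those under 2 kb the share was 16.3% for members, beside 4.51% for coding genes of that size, and with 5 kb flanks it was 22.8%, beside 9.03%. The start was covered in 10 members (10.6%), beside 1.66% of all coding genes, again not matched for size. DiffBind regions covered 12137 body bases, which were 11.2% of all member bodies and 16.0% of those under 2 kb, compared with 3.85% over all coding genes under 2 kb. With 5 kb flanks the covered shares were 3.97% for members under 2 kb and 1.72% for coding genes of that size. Of the 22 members in either list, 7 were in both, 7 had an RS peak alone and 8 a DiffBind region alone, and 72 were in neither. RS peaks and DiffBind regions were made from the same samples, so their overlap is no independent evidence.

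These shares depended on whether regions holding any repeated sequence were kept. When every region holding a 75-base window found elsewhere in the genome was left out, RS peaks overlapped 4 bodies (4.35% of the 92 under 2 kb), and the share of coding genes under 2 kb was 2.26%. The DiffBind count fell to 2 (2.17%), beside 2.00%. For covered starts the counts were then 2 for RS (2.13%, beside 0.684% of all coding genes) and 1 for DiffBind (1.06%, beside 0.754%). With 5 kb flanks they were 13 for RS (14.1%, beside 5.82% of coding genes under 2 kb) and 10 for DiffBind (10.9%, beside 4.34%). PRO counts stayed at 0, and the PRO shares beside them fell as well. These were 0.260% of coding genes under 2 kb for bodies, 0.521% with 5 kb flanks, and 0.436% of all coding genes for starts. A region was left out here however few of its windows were repeated. Another setting, chosen after seeing the data, left out only regions with over 50% repeated windows. RS peaks then overlapped 11 bodies and DiffBind regions 15. Coding genes under 2 kb were not counted at that setting. Repeated windows made up 18.0% of those in RS peaks over members, 9.33% in DiffBind regions over members and 9.38% in member bodies. How far read placement among near copies set these counts was not tested.

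**Figure D1:**
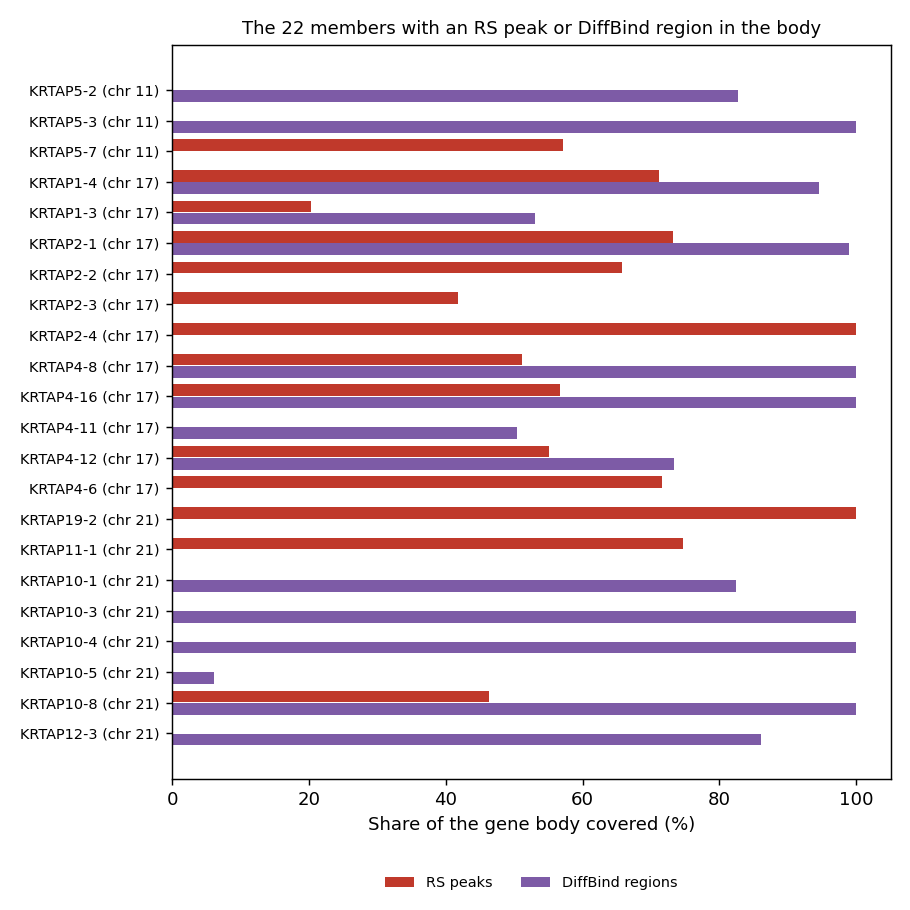
Share of the gene body covered (%) in the 22 KRTAP genes with an RS peak (red) or a DiffBind region (purple), in order of position on chromosomes 11, 17 and 21. KRTAP2-4 and KRTAP19-2 were fully covered by RS peaks, and KRTAP5-3, KRTAP4-8, KRTAP4-16, KRTAP10-3, KRTAP10-4 and KRTAP10-8 by DiffBind regions. No bar is drawn for PRO, which covered 0 bases of all 94.

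The chromosome 17 cluster held 10 of the 14 members with an RS peak and 7 of the 15 with a DiffBind region. RS peaks covered 13.0% of its gene bodies and 1.22% of the sequence between them. The DiffBind values were 13.0% and 1.01%. In this cluster both lists lay over the short genes more than between them. Of its 13 RS peaks, 10 overlapped a member, and all 7 DiffBind regions did. The longest RS peak of the span, of 1401 bp (chr17:39361601-39363001), lay between genes, 14710 bp from KRTAP9-1.

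All 4 KRTAP2 genes, which encode high sulfur proteins, had an RS peak. RS peaks covered 568 bases of KRTAP2-1 (chr17:39202793-39203568, 73.2% of the body), 482 bases of KRTAP2-2 (65.8%), 366 bases of KRTAP2-3 (41.8%) and all 764 bases of KRTAP2-4 (chr17:39221368-39222131). DiffBind regions covered 99.0% of KRTAP2-1 and 0 bases of the other members. PRO covered 0 bases of each. Within this subfamily the RS peaks thus recurred from gene to gene and the DiffBind region did not. The KRTAP2 coding sequences were 95.8% to 99.7% identical over 6 pairs, and 36.1% to 62.5% of the 75-base windows of their bodies occurred elsewhere in the genome. The share of repeated windows in the 4 RS peaks was 52.3%, 82.7%, 79.2% and 30.6%, from KRTAP2-1 to KRTAP2-4. Which copy the reads came from was not tested.

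The KRTAP4 genes, whose proteins are mostly of the ultra-high sulfur class, were covered in part: 4 of 12 had an RS peak, 4 a DiffBind region and 5 either. RS peaks covered 71.6% of KRTAP4-6, 56.6% of KRTAP4-16, 55.0% of KRTAP4-12 and 51.1% of KRTAP4-8. In the same order DiffBind regions covered 0%, 100%, 73.4% and 100%. KRTAP4-11 had no RS peak, and a DiffBind region covered 50.4% of its body. KRTAP4-6 was thus marked in the RS list alone and KRTAP4-11 in the DiffBind list alone, and the other genes of the 5 were in both. The DiffBind region over KRTAP4-16 was 2201 bp long (chr17:39257601-39259801) and held 2 RS peaks, 1 in the gene and 1 upstream of it.

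In the KRTAP1 subfamily, high sulfur genes next to KRTAP2, 2 of 4 members were in both lists. RS peaks covered 71.1% of KRTAP1-4 and 20.3% of KRTAP1-3, and DiffBind regions covered 94.6% and 53.1%. The body of KRTAP1-4 and its RS and DiffBind regions held no repeated 75-base window. The 8 KRTAP9 genes, which are also near copies of one another, had no region in their bodies or 5 kb flanks in any list. Up to 69.3% of the windows of a KRTAP9 body, that of KRTAP9-2, were repeated, and 63.8% of those of KRTAP9-8, but the KRTAP9 median was 13.4%, compared with 52.5% for KRTAP2. KRTAP9-2 and KRTAP9-8 were thus at least as repeated as the KRTAP2 bodies and in no list, while most KRTAP9 bodies were less repeated. The 3 KRTAP3 genes likewise had 0 regions in bodies and flanks.

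**Figure D2:**
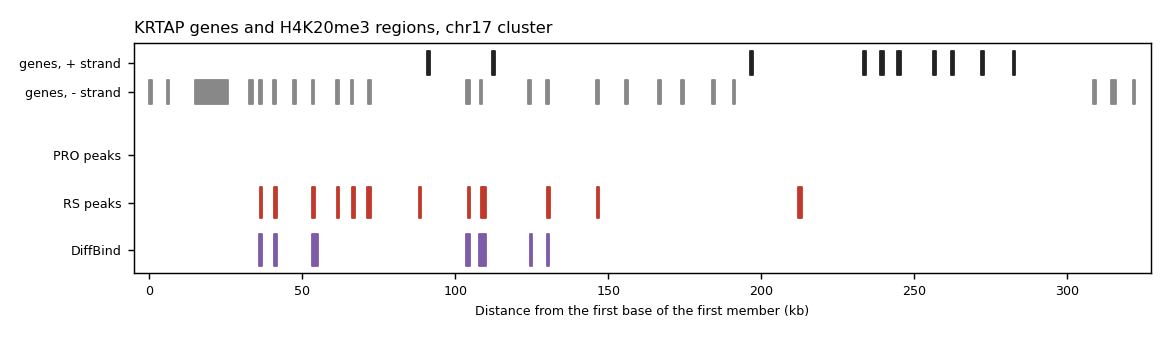
The chromosome 17 cluster, with distance from the first base of the first member in kb on the horizontal axis. Rows show the 34 members on the plus (black) and minus (grey) strand, PRO peaks (0 in this span), RS peaks (red, 13) and DiffBind regions (purple, 7). Marks narrower than the line width are drawn at a fixed minimum width, and all DiffBind regions and 10 RS peaks lie over a member.

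The distal cluster of chromosome 21 showed the reverse pattern, with more members in the DiffBind list than in the RS list. Of its 16 high sulfur genes, 1 had an RS peak and 6 a DiffBind region. KRTAP10-8 was in both, with 406 bases (46.3%) in an RS peak and all 876 bases in a DiffBind region. DiffBind regions alone covered KRTAP10-3 and KRTAP10-4 in full, 86.1% of KRTAP12-3, 82.4% of KRTAP10-1 and 6.09% of KRTAP10-5. PRO covered 0 bases of any of them. RS peaks were nonetheless present between the genes. They covered 2.45% of the bodies and 5.33% of the gaps, and 7 of the 16 members had an RS peak within the body or 5 kb. DiffBind regions covered 29.9% of the bodies and 11.8% of the gaps, and 10 members had 1 within that distance.

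Several of the longest regions near any KRTAP gene lay in this distal cluster. The RS peak that entered KRTAP10-8 was 2201 bp long (chr21:46030201-46032401), and the DiffBind region around it was 3001 bp (chr21:46030001-46033001). A DiffBind region of the same length lay over KRTAP10-4 (chr21:45993201-45996201) and held no RS peak. DiffBind regions over KRTAP10-3 (chr21:45977401-45979801) and KRTAP10-5 (chr21:45997201-45999401) were 2401 and 2201 bp long. RS peaks of 1201 bp lay 1106 bp from KRTAP10-9 (chr21:46049401-46050601) and 3557 bp from KRTAP12-2 (chr21:46090401-46091601). The RS peak nearest to KRTAP12-4, of 1001 bp, was 425 bp away (chr21:46075001-46076001). The RS marks of this cluster thus lay beside the genes more often than over them, in 1 of 9 cases over a member.

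All 16 genes of the distal cluster lie within TSPEAR (chr21:45917776-46131487), a longer coding gene linked to hair and tooth development. A region over 1 of these KRTAP genes is therefore also a region in TSPEAR, and 1 of the 16 bodies overlapped a TSPEAR exon. RS peaks covered 9010 bp of TSPEAR (4.22%) and DiffBind regions 24614 bp (11.5%), and PRO peaks covered 0. Within the cluster span the shares were 5.03% and 13.7%, and in the part of TSPEAR outside it 1.83% and 5.13%. Both lists were thus denser within the cluster than in the rest of the host gene. Leaving out members that overlap another coding gene kept 78 and lowered the DiffBind count from 15 to 9.

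The proximal cluster of chromosome 21, which spans 757169 bp, had the lowest share of its span in RS peaks (0.582%) and DiffBind regions (0.159%) of the clusters with more than 6 members. RS peaks overlapped 2 of 33 members and 6.13% of the body bases, compared with 1 of 16 and 2.45% in the distal cluster, and DiffBind regions overlapped 0. An RS peak of 1201 bp (chr21:31858601-31859801) covered all 394 bases of KRTAP19-2, a high glycine-tyrosine gene. Another, of 801 bp, covered 699 bases (74.6%) of KRTAP11-1, a high sulfur gene (chr21:32252963-32253899). Neither peak held a repeated 75-base window, and both genes were at 0 in the PRO and DiffBind lists. With 5 kb flanks the RS count was 4, where KRTAP19-3 and KRTAP21-2 were added. The single DiffBind region of this span, 1201 bp long (chr21:31751401-31752601), lay 6812 bp from KRTAP13-2. KRTAP24-1, at 203333 bp, was the farthest of the 94 from an RS peak.

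The KRTAP5 genes, of the ultra-high sulfur class, differed between their locations on chromosome 11. On the short arm RS peaks overlapped 0 of 6, and DiffBind regions overlapped 2, covering 82.6% of KRTAP5-2 and all 899 bases of KRTAP5-3. On the long arm 1 of 5 had an RS peak, which covered 801 bases (57.1%) of KRTAP5-7 (chr11:71238313-71239715), and 0 had a DiffBind region. No RS peak lay anywhere in the short-arm span. No KRTAP5 gene was in both lists. With counts of 1 and 2 these arms give a description only.

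**Figure D3:**
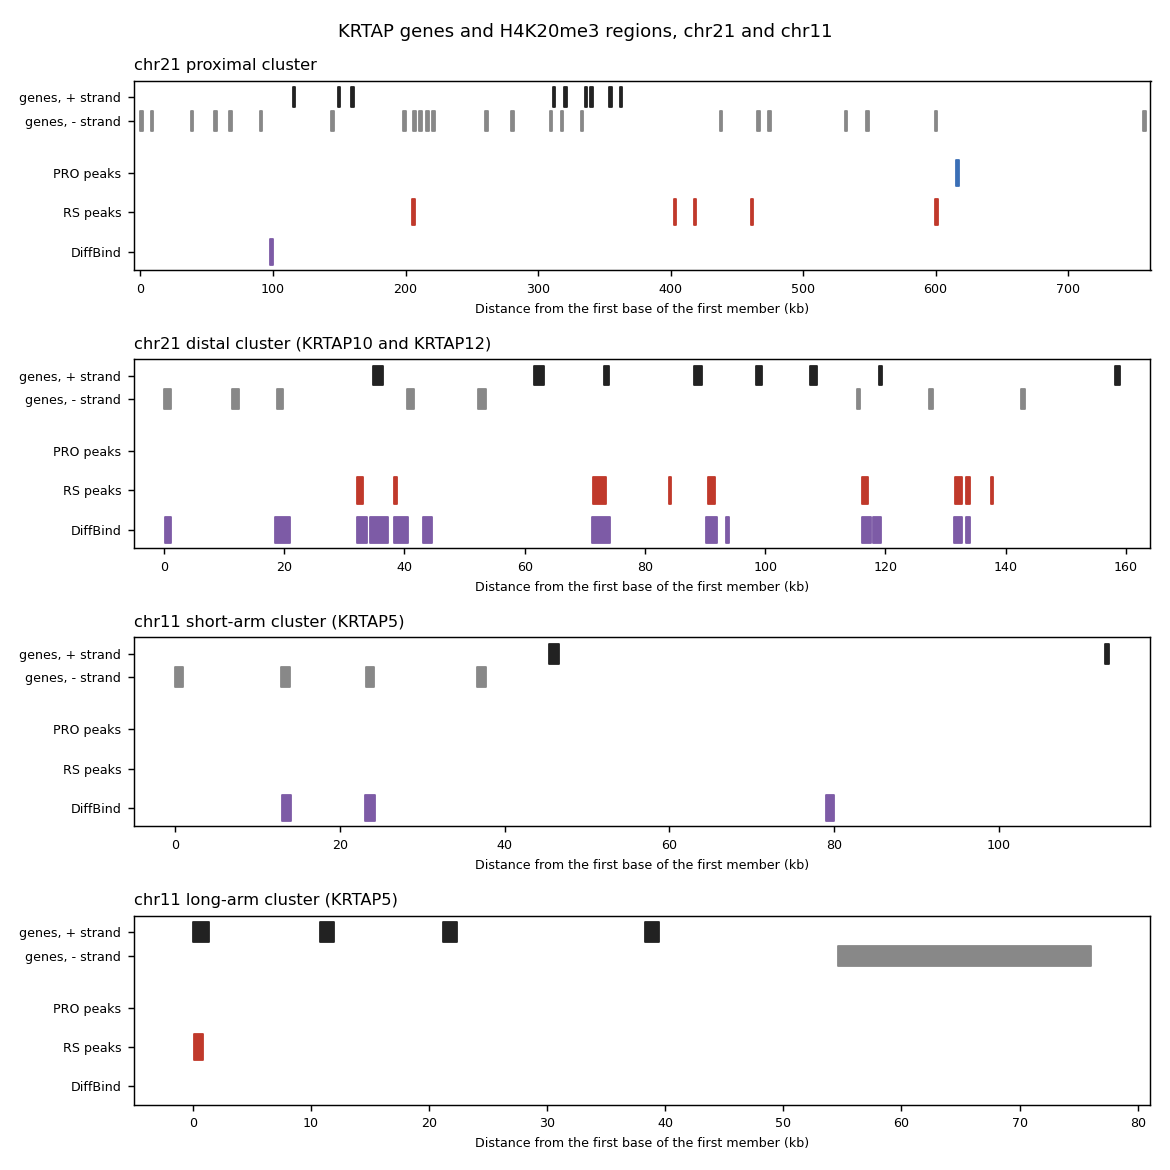
The remaining 4 clusters, drawn as for chromosome 17, each with its own horizontal axis in kb from the first base of its first member, and with a fixed minimum width for narrow marks. In the distal cluster of chromosome 21, 13 DiffBind regions (purple) and 9 RS peaks (red) stand in 159096 bp. The proximal cluster holds 5 RS peaks, 1 DiffBind region and the single PRO peak (blue) in 757169 bp.

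Across all 5 spans there were 28 RS peaks and 24 DiffBind regions. Of the RS peaks, 14 lay over a member and 14 overlapped a DiffBind region. Each of the latter lay wholly within the DiffBind region it met. Of the DiffBind regions, 15 lay over a member and 13 overlapped an RS peak, so 11 had no RS peak. RS peaks had a median length of 801 bp and a range of 1 to 2201 bp, and DiffBind regions a median of 1301 bp and a range of 401 to 3001 bp. Median RS coverage of the 14 overlapped bodies was 61.4%, and median DiffBind coverage of the 15 overlapped bodies was 94.6%.

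RS peaks sat toward the 5′ end of the genes they overlapped. Of the 7674 covered body bases, 74.0% lay between the annotated start and the midpoint of the body, and in 12 of 14 members more covered bases lay on that side. In the chromosome 17 cluster this held for 9 of 10. KRTAP2-1, KRTAP2-2, KRTAP2-3, KRTAP2-4, KRTAP4-6, KRTAP4-8, KRTAP10-8, KRTAP11-1 and KRTAP19-2 were the 9 members with a covered start. The KRTAP2 genes are near copies, so they are not separate instances. Without regions holding a repeated window, RS peaks covered 2 starts and DiffBind regions 1. The share on the 5′ side was not redone without such regions. DiffBind coverage was more even, with 55.9% of covered bases on the 5′ side and more there in 8 of 15 members. Of the RS bases in bodies, 73.0% were coding and 27.0% untranslated. The DiffBind shares were 71.2% and 28.8%.

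At a point 100 bases into the gene, RS peaks covered 13 of 94 members (13.8%), compared with 1.85% of all coding genes. Here too the coding genes are of every length and not matched for size. The counts by distance were not redone without regions holding repeated windows. At 100 bases upstream the values were 4 members (4.26%) and 1.62%. At 1300 bases into the gene, past the end of most KRTAP bodies, 0 members were covered in RS. DiffBind regions covered 14 members (14.9%) at 100 bases into the gene and 7 (7.45%) at 100 bases upstream, compared with 1.73% and 1.59% of all coding genes. Both lists were therefore highest just inside the gene and lower on either side of it.

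**Figure D4:**
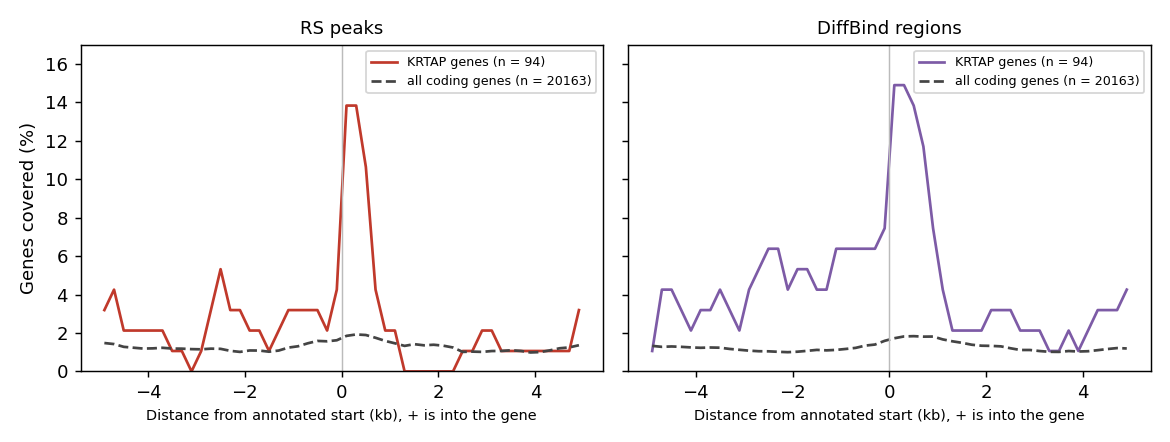
Share of genes (%) covered by RS peaks (left) and DiffBind regions (right) at points 200 bp apart, from 5 kb before to 5 kb after the annotated start, with positive distances into the gene. Solid lines are the 94 KRTAP genes and dashed lines are 20163 coding genes of every length, which include them. Regions with repeated windows are kept. The KRTAP lines reach 13.8% and 14.9% just inside the gene, and the dashed lines stay below 2%.

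A TATAAA motif was looked for in the 100 bases upstream of each annotated start, in the GRCh37 sequence. On the strand of the gene it was present in 68 of 94 members (72.3%), beside 835 of 20163 coding genes (4.14%). On either strand the shares were 73.4% and 5.31%. No other motif was searched. Among members with an RS peak in the body, 12 of 14 held it (85.7%), and among those with a covered start, 8 of 9 (88.9%). A match is a description of the letters in this window and not a site of binding.

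By protein class, RS peaks overlapped 9 of 45 high sulfur genes, 4 of 31 ultra-high sulfur genes and 1 of 18 high glycine-tyrosine genes. DiffBind regions overlapped 10, 5 and 0. The cut on codons divided the KRTAP20, KRTAP21 and KRTAP22 subfamilies between classes. KRTAP20-4, KRTAP21-3 and KRTAP22-2, with 25%, 29.3% and 33.3% glycine and tyrosine codons, fell below it and counted as high sulfur. KRTAP7-1, at 34.5%, did so too. None of these bodies was in either list. Class and cluster cannot be told apart for the high glycine-tyrosine genes, which all lie in the proximal cluster of chromosome 21. Within the chromosome 17 cluster, where high sulfur and ultra-high sulfur genes lie side by side, RS peaks overlapped 7 of 14 and 3 of 20, and DiffBind regions 4 of 14 and 3 of 20. The 4 KRTAP2 genes are among the 7.

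Over the whole family, the median G + C content was 63.3% for members with a DiffBind region and 51.9% for the other members. For RS peaks the medians were 54.9% and 52.0%. The clusters themselves differed in this measure, from a median of 47.6% in the proximal cluster of chromosome 21 to 65.2% in the distal cluster. Within clusters the DiffBind medians lay close together: 52.7% with a region and 53.2% without on chromosome 17, 65.4% and 64.8% in the distal cluster of chromosome 21, and 61.3% and 61.8% on the short arm of chromosome 11. The RS medians were 55.2% with a peak and 52.0% without on chromosome 17. They were 50.4% and 47.4% in the proximal and 65.9% and 65.0% in the distal cluster of chromosome 21. On the long arm of chromosome 11 they were 54.8% and 57.5%. Outside chromosome 17 these RS groups held only 1 or 2 members with a peak. Cysteine codons made up a median of 26.9% of the coding sequence of members with a DiffBind region and 21.7% of the others. The RS values were 27.1% and 22.4%. On chromosome 17 the order was the opposite, with medians of 27.3% with a DiffBind region and 32.5% without, and of 27.3% with an RS peak and 32.6% without. What part base composition had in these lists was not tested.

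**Figure D5:**
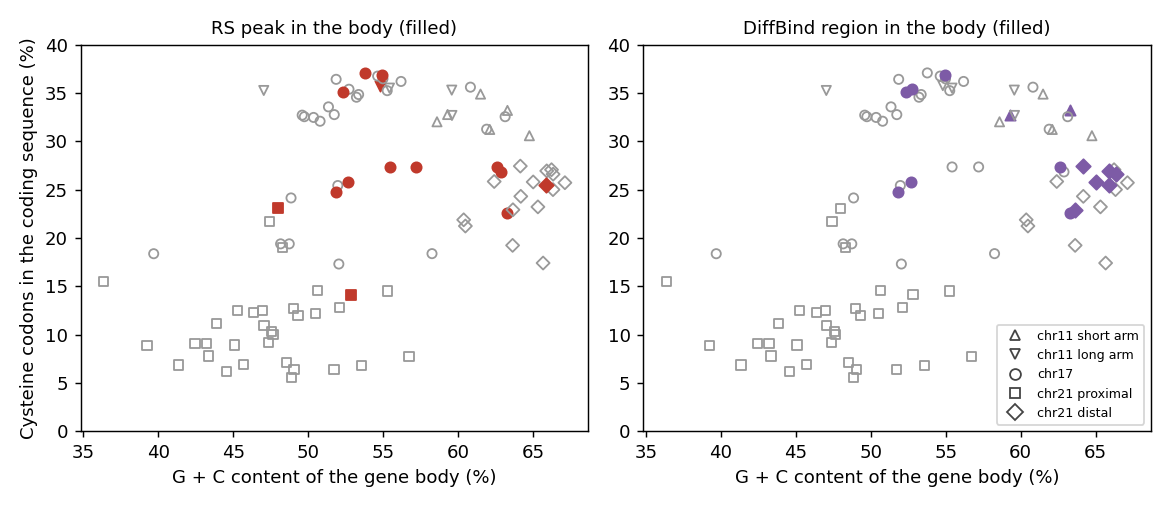
G + C content of the gene body (%, horizontal) and cysteine codons in the coding sequence (%, vertical) of the 94 KRTAP genes, with symbols by cluster. Filled symbols have an RS peak (left) or a DiffBind region (right) in the body. Medians of G + C content were 63.3% with a DiffBind region and 51.9% without, and 54.9% with an RS peak and 52.0% without. On chromosome 17 alone the DiffBind medians were 52.7% and 53.2%, and the RS medians 55.2% and 52.0%.

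Most genes that border the clusters held no region, as did most coding genes. Of all coding gene bodies, RS peaks overlapped 21.0% and DiffBind regions 18.3%. Beside the chromosome 17 cluster, the keratin genes KRT40 (6294 bp away) and KRT33A (30381 bp away) had 0 covered bases in the 3 lists. CLDN8, LRRC3, UBE2G2, DUSP8 and XNDC1N-ZNF705EP-ALG1L9P were also at 0. RS peaks covered 12.1% of IFITM10, next to the short-arm cluster of chromosome 11, and DiffBind regions 9.90%. NADSYN1 had 1.69% of its body in RS peaks, and TIAM1 had 0.635% in RS peaks and 1.13% in DiffBind regions. The 18 non-coding relatives, 17 pseudogenes and the antisense RNA KRTAP5-AS1, held 1 RS overlap and 1 DiffBind overlap. These were KRTAP21-4P, with 49.1% of its length in an RS peak, and KRTAP5-AS1, with 3.60% in the DiffBind region that also lay over KRTAP5-2.

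Related genes of hair and of the cornified layer, and the other keratin genes, were examined as lists. Of 95 genes in 7 lists, PRO peaks overlapped 0, RS peaks 9 (9.47%) and DiffBind regions 11 (11.6%), beside 3.97%, 21.0% and 18.3% of all coding genes. Among the 11 type I hair keratins, the acidic filament partners of KRTAP proteins, RS peaks overlapped KRT34 (46.6%) and KRT39 (11.7%), and DiffBind regions overlapped these and KRT31 and KRT36. The 6 type II hair keratins had 0 in either list, as had the 18 other type I keratins and the 11 SPRR genes of the cornified envelope. Of 20 other type II keratins, KRT2, KRT7 and KRT80 were in both lists. Of 19 LCE genes, which encode late proteins of the cornified envelope, RS peaks covered 71.1% of LCE3E and 31.6% of LCE2B, and DiffBind regions covered 93.7% of LCE3E. Among 10 hair shaft regulators and enzymes, S100A3, a calcium-binding protein of the hair cuticle, was covered to 93.1% by RS peaks and 100% by DiffBind regions. TCHH, which encodes trichohyalin of the inner root sheath, was covered to 8.78% and 32.9%. HOXC13, a transcription factor of the hair shaft, was covered to 10.2% by DiffBind regions alone.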

How the data were processed

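H4K20me3 ChIP-seq samples of IMR90 cells were grouped by their titles into PRO and RS, with 2 antibodies each. The submitters' processing notes name CASAVA 1.8.2, Trim Galore 0.3.0, Bowtie2 2.1.0, Picard 1.98, SICER 1.1, DiffBind 1.8.3 and DESeq. According to the methods, the authors aligned reads to hg19, called domains with SICER in windows of 200 bp against total histone H4, and intersected both antibodies within a group. The count model that gave the DiffBind list was not settled here, and the list used holds fewer regions than the authors describe, so it may be incomplete or a different version. The deposited lists hold positions in bases, with no score, count, p-value or direction. Reads from near copies may have been placed at any copy, which affects KRTAP genes.

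GRCh37 shares its coordinates with hg19 on the chromosomes used. Regions were used as deposited, and an overlap was counted from 1 shared base of the span from first to last annotated base of a gene. Flanks were 5 kb. Clusters were split at gaps of 1 Mb or more. Repeated sequence meant a 75-base window found elsewhere in the genome on either strand. Protein class came from the codons of the GENCODE coding sequence (cysteine over 30%, ultra-high sulfur; glycine plus tyrosine at least 35%, high glycine-tyrosine; the rest, high sulfur), in place of the protein sequences planned. Identity was 1 minus edit distance over the longer coding sequence. Members with at least 1 covered body base were named, as were the nearest coding genes on either side of a cluster, any coding gene overlapping members, and the longest regions of at least 1000 bp within 5 kb of a member. Further members and regions were named after their values were seen. No test was run, since each group had 1 list. Alternatives changed the smallest overlap, flank, region length and ends, merging, exons, repeated regions and overlapping genes. Members and gene lists were chosen with earlier results of these data known. Overlap and repeat counting were tested on simulated data. Python 3.11.15, numpy 2.4.6, numba 0.67.0, pyfaidx 0.9.0.4, edlib 1.3.9.post1 and matplotlib 3.10.9 were used.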

Additional observations from a re-analysis of the deposited data

How the results depend on the processing

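Of 178 alternative values for 22 results, 154 stayed within 1.5 times the reported value. Many of the 154, with all PRO values among them, were 0 set against 0. Others came from settings that could change little, such as lowering region ends by 1 base. The tally is therefore no measure of how stable the results are. The 22 values with regions dropped where over 50% of windows were repeated, and the background shares without repeated regions, were chosen after seeing the data. At that 50% setting 11 RS bodies and 15 DiffBind bodies remained. With RS peaks of at least 1000 bp alone, 4 bodies were overlapped (2132 bases), and 11 bodies with 5 kb flanks (10008 bases). By cluster these were 2 on chromosome 17, 1 in the proximal and 1 in the distal cluster of chromosome 21, and 0 on the long arm of chromosome 11. DiffBind regions of that length overlapped 3 members on chromosome 17. Dropping regions with any repeated window left 4 RS bodies (2095 bases) and 13 with flanks (7009 bases), with 2 on chromosome 17, 0 in the distal cluster of chromosome 21 and 0 on the long arm of chromosome 11. KRTAP1-4, KRTAP4-16, KRTAP11-1 and KRTAP19-2 remained. It left 2 DiffBind bodies (1152 bases), KRTAP1-4 and KRTAP12-3, and 10 with flanks (8807 bases), with 1 on chromosome 17, 1 in the distal cluster of chromosome 21 and 0 on the short arm of chromosome 11. Dropping members that overlap another coding gene left 9 DiffBind bodies and no member in the distal cluster. Using fewer regions or members can only lower these counts. Without repeated regions, DiffBind regions overlapped 2.17% of members under 2 kb, beside 2.00% of coding genes of that size. With them the shares were 16.3% and 4.51%. For RS peaks the shares were 4.35% and 2.26% without repeated regions, and 15.2% and 8.51% with them. What lowered the shares was not tested. Asking for at least 50% of the body left 0 RS members in the distal cluster of chromosome 21, since KRTAP10-8 was covered to 46.3%. PRO counts were 0 under every alternative run. No paired analysis was possible because the lists merge both antibodies and give no sample a value of its own. For the same reason leaving out an antibody could not be tried, so that 12 intended comparisons are missing.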
